A study of Mus musculus with 21 samples.

Results

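The glutathione transferase genes described here are 7 of the mu class (Gstm1, Gstm2, Gstm3, Gstm4, Gstm5, Gstm6 and Gstm7), 2 of the alpha class (Gsta3 and Gsta4) and Gstp1 of the pi class. They were taken as all non-control probes that the arrays name for these genes, which gave 23 of 55681 probes and 10 of 34844 gene names. The genes were chosen from earlier results on the same arrays, in which Gstm1 and Gstm4 were among the genes highest with compound 2. Changes against vehicle, and differences that use the compound 2 arrays, are therefore given as a description, without p-values. Other differences between treatments are not independent of this choice either and are given in the same way.

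RNA was measured in mouse small-intestinal organoids on 21 dual-colour Agilent arrays, 1 array per sample, with the sample in Cy3 and Universal Mouse Reference RNA in Cy5. Doxycycline had been withdrawn for 24 h from 4 samples (letters D to G). The other groups kept doxycycline and were treated for 24 h: 3 with 2 uM compound 2 (letters A to C), 4 with 2 uM compound 6 (D to G), 3 with 2 uM compound 9 (A to C), and 7 with vehicle (A to C, n = 3, and D to G, n = 4). All organoids, controls included, carried an N-terminally truncated, myc-tagged human β-catenin under a tetracycline operator, with the M2-rtTA activator driven by the endogenous ROSA26 promoter, which is active in most cell types. No group was without the transgene. Per the series text, the compounds are close analogues whose targets are the Mediator-associated kinases CDK8 and CDK19. The labels do not say whether arrays of a group came from separate cultures or animals, so p-values measure only the spread between these samples.

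Glutathione transferases of these classes are cytosolic enzymes that join glutathione to reactive, often foreign or oxidised molecules, so that these can be exported. The small intestine, whose lining meets ingested chemicals first, expresses alpha, mu and pi class enzymes, mainly in enterocytes. Many of their genes respond to NRF2, the transcription factor of the antioxidant response, and to receptors for foreign chemicals. The mu class genes lie side by side in one cluster and are similar in sequence, so that a probe for one can bind the RNA of another.

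The probes themselves bear on how far the genes can be told apart. Coordinates are those of the files (mouse build mm9), and probes of a gene are numbered here from the brightest to the dimmest. Probes for Gstm3, Gstm6 and Gstm7 cover the same stretch of the coding sequence, at chr3:107769290-107770549, chr3:107745052-107745111 and chr3:107732073-107733247 (minus strand). Capitals mark bases that are identical in all 3 probes, 32 of 55 aligned bases.
Gstm3 probe 2: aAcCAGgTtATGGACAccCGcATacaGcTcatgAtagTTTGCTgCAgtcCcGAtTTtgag
Gstm6 probe 3: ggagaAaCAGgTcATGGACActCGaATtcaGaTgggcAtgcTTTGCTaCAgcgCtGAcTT
Gstm7 probe 1: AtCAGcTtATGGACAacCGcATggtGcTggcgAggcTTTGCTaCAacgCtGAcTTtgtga

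The brightest probes of Gstm1 and Gstm3 overlap near the end of their transcripts, where 25 of 27 aligned bases are identical (capitals).
Gstm1 probe 1, bases 34 to 60: TCATcTACAATAAAGtCTGAAACACAC
Gstm3 probe 1, bases 1 to 27: TCATgTACAATAAAGcCTGAAACACAC

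Gstm1 probe 2 and Gstm2 probe 3 share a shorter stretch with 22 of 30 identical bases (capitals).
Gstm1 probe 2, bases 20 to 49: CAAAGATGGCCcacTGGAgtaacAAGTAGG
Gstm2 probe 3, bases 13 to 42: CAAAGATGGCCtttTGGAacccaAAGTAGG

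The file places Gstm1 probe 1 on chromosome 5 (chr5:117082490-117082549), although it lists the Gstm1 transcript for it. Gstm1 probe 2 (chr3:107815595-107815654) and all other mu class probes lie on chromosome 3. No probe of these genes shared a run of 15 identical bases with a probe of another of them. Probes were compared only with probes, so a match to the RNA of another of these genes was not looked for. Such a run was shared with a probe of a gene outside them by Gstm3 probe 1 (Flcn), Gstm6 probe 2 (Erc2), Gstm6 probe 3 (Klra8) and Gstp1 probe 1 (2010002M12Rik). The Gstm4 probe with the larger changes and the Gstp1 probe that is also assigned to a Gstp2 transcript in the file are shown because results below turn on them (chr3:107846495-107846847 and chr19:4037306-4037365, minus strand).
Gstm4 probe 1: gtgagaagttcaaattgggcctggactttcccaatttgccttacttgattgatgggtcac
Gstp1 probe 2: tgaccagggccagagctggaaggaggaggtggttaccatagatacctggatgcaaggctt

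All 7 epithelial and all 7 enterocyte markers stood well above background on every array. So did 6 of 6 leukocyte, 5 of 6 fibroblast and 2 of 3 endothelial markers, all but Pdgfra and Cdh5, which did so on none. Leukocyte markers had a mean log2 ratio of -1.74 to -1.67 with compound 6, against -2.07 to -1.93 with vehicle D to G, and fibroblast markers -6.11 to -5.86, against -6.30 to -6.20. After withdrawal leukocyte markers were at -2.02 to -1.92 and fibroblast markers at -6.27 to -6.18. Stem cell markers averaged 0.07 to 0.38 after withdrawal and 0.45 to 1.24 with compound 6, against 0.89 to 2.85 with vehicle D to G. With compound 2 they averaged 1.31 to 1.66, against 1.2 to 1.36 with vehicle A to C. Olfm4 was well above background on no array after withdrawal or with compound 6, and on none of letters A to C. Enteroendocrine markers averaged 3.67 to 4.34 after withdrawal and 4.5 to 4.78 with compound 6, against 3.58 to 4.13 with vehicle D to G, and Neurod1 and Gcg were not well above background on any array A to C. Enterocyte markers averaged 6.85 to 7.09 after withdrawal and 6.93 to 7.17 with compound 6, against 6.70 to 6.91 with vehicle D to G, and 6.66 to 6.88 with compound 2, against 6.57 to 6.81 with vehicle A to C. Goblet markers averaged 5.18 to 5.31 after withdrawal and 5.20 to 5.49 with compound 6, against 5.09 to 5.28 with vehicle D to G, and 4.85 to 5.00 with compound 2, against 4.60 to 4.90 with vehicle A to C. Paneth markers overlapped between the groups of each letter set. The part of these shifts in the results below was not tested, and in bulk RNA more cells of a type and more RNA per cell cannot be told apart. Between 42.6% and 51.9% of spots were well above background in Cy3. The number of arrays limits the precision.

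Gstm1 was the member with the largest change with compound 2. Values are log2 ratios of sample over the common reference, and they are compared only within a letter set because the sets (A to C, and D to G) were scanned on different days. Gstm1 probe 1 read 3.96, 3.86 and 4.07 with compound 2 and 2.56, 2.67 and 2.47 with compound 9, against 1.92, 1.93 and 1.71 with vehicle A to C. In the other letters it read 4.20, 4.21, 3.74 and 3.85 after withdrawal and 5.23, 5.08, 5.30 and 4.82 with compound 6, against 3.40, 3.33, 3.52 and 3.02 with vehicle D to G. In both letter sets the groups did not overlap, with compound 2 above compound 9 above vehicle, and compound 6 above withdrawal above vehicle. The change against vehicle was 2.11 ± 0.14 with compound 2 (SE, 4.32-fold), 1.79 ± 0.13 with compound 6 (3.46-fold), 0.71 ± 0.14 with compound 9 (1.64-fold) and 0.68 ± 0.13 after withdrawal (1.61-fold). Gstm1 probe 2, in a different part of the transcript, gave 1.98, 1.48, 0.69 and 0.69.

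**Figure D1:**
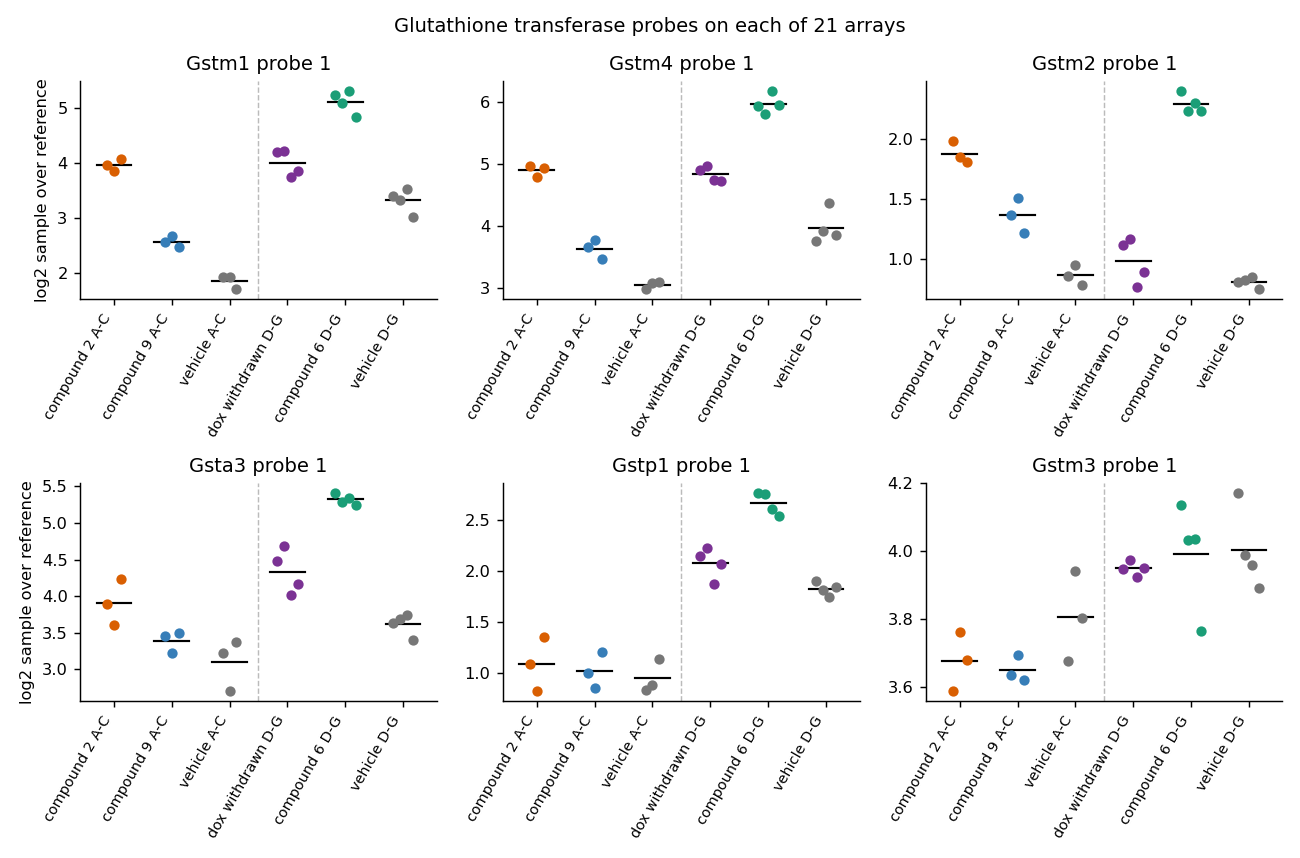
Log2 ratio of sample over reference (vertical axis) on each array for the brightest probe of Gstm1, Gstm4, Gstm2, Gsta3, Gstp1 and Gstm3. Groups are side by side within a letter set, and points are arrays. Gstm1, Gstm4, Gstm2 and Gsta3 are above vehicle on every compound 2 array, and Gstm3 probe 1 stays between 3.59 and 4.17 on all 21 arrays.

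Gstm4, an enzyme of the same class, followed the same order. Its probe 1 read 4.96, 4.79 and 4.93 with compound 2 and 3.65, 3.76 and 3.46 with compound 9, against 2.98, 3.08 and 3.09 with vehicle A to C. It read 4.90, 4.97, 4.74 and 4.71 after withdrawal and 5.93, 5.79, 6.17 and 5.94 with compound 6, against 3.75, 3.91, 4.37 and 3.85 with vehicle D to G. No treated array overlapped its vehicle arrays. The change of Gstm4 probe 1 was 1.84 ± 0.13 with compound 2 and 1.99 ± 0.11 with compound 6, against the same letters of vehicle, and 0.58 ± 0.13 with compound 9 and 0.86 ± 0.11 after withdrawal. Gstm4 probe 2 gave smaller changes, 0.50 with compound 2, 0.91 with compound 6, 0.07 with compound 9 and 0.59 after withdrawal.

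Gstm2, another mu class enzyme, was further above vehicle with compounds 2 and 6 than after withdrawal. Gstm2 probe 1 read 1.98, 1.85 and 1.80 with compound 2 and 1.36, 1.5 and 1.21 with compound 9, against 0.85, 0.95 and 0.78 with vehicle A to C. It read 1.12, 1.17, 0.76 and 0.89 after withdrawal and 2.40, 2.23, 2.30 and 2.23 with compound 6, against 0.81, 0.82, 0.85 and 0.74 with vehicle D to G. For this probe withdrawal overlapped vehicle, and the compounds did not. After withdrawal the changes of its 3 probes were 0.18 ± 0.09, 0.29 ± 0.10 and 0.24 ± 0.10, and probe 2 did not overlap vehicle. The changes of its 3 probes were 1.02, 1.08 and 0.96 with compound 2, and 1.49, 1.47 and 1.52 with compound 6.

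Gsta3, an alpha class enzyme that in mice detoxifies an epoxide of aflatoxin, was high with compound 6. Gsta3 probe 1 read 3.89, 3.61 and 4.23 with compound 2 and 3.46, 3.22 and 3.49 with compound 9, against 3.23, 2.70 and 3.37 with vehicle A to C. It read 4.47, 4.69, 4.01 and 4.17 after withdrawal and 5.41, 5.29, 5.34 and 5.25 with compound 6, against 3.64, 3.69, 3.75 and 3.41 with vehicle D to G. Compound 9 overlapped vehicle. The change was 1.70 ± 0.16 with compound 6, 0.81 ± 0.18 with compound 2, 0.71 ± 0.16 after withdrawal and 0.29 ± 0.18 with compound 9. Gsta3 probe 2 gave 1.39, 0.66, 0.59 and 0.21 in that order. Gsta4, which conjugates the lipid peroxidation product 4-hydroxynonenal, lay within 0.24 of vehicle in each treatment.

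Gstp1, the pi class enzyme, was higher with compound 6 and close to vehicle with compounds 2 and 9. Gstp1 probe 1 read 1.09, 0.82 and 1.35 with compound 2 and 1.00, 0.85 and 1.2 with compound 9, against 0.83, 0.88 and 1.13 with vehicle A to C. It read 2.14, 2.22, 1.87 and 2.07 after withdrawal and 2.76, 2.75, 2.60 and 2.54 with compound 6, against 1.90, 1.81, 1.75 and 1.84 with vehicle D to G. After withdrawal each of 4 arrays lay above the vehicle array of the same letter, although the F array lay below vehicle D, and compound 6 stood apart from both groups. The change after withdrawal was 0.25 ± 0.11 for probe 1 and 0.39 ± 0.11 for probe 2, whose groups did not overlap. The change with compound 6 was 0.84 ± 0.11 for probe 1 and 1.04 ± 0.11 for probe 2.

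Changes of the remaining mu class genes were smaller, apart from Gstm6 probe 4. Gstm5 probe 1 was 0.55 ± 0.09 above vehicle with compound 6, and its change was -0.13 ± 0.09 after withdrawal and 0.07 ± 0.11 with compound 2. Gstm6 had 5 probes that ranged widely with compound 6, from 0.23 (probe 2) to 1.19 (probe 4), where probe 4 was well above background on 19 arrays and probe 5 on 8 of 21. Gstm7 probe 1 was 0.33 ± 0.10 above vehicle with compound 6, 0.30 ± 0.11 with compound 2 and 0.28 ± 0.10 after withdrawal. Gstm7 probe 2 gave smaller changes, 0.18 ± 0.07, 0.15 ± 0.08 and 0.13 ± 0.07 in that order. Gstm7 probe 3 was well above background on 1 array, a compound 2 array, and was not tested.

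Of the 22 tested probes, 18 were higher with compound 6 and none lower at an adjusted p under 0.05 in limma, where 10.7% of all 29631 tested probes were higher and 12.6% lower. The compound 6 result was weaker in 11 of 20 other settings for Gsta4 and in 5 of 20 for Gstm7. With compound 2, 10 were higher and none lower, against 2.77% and 1.65% of all probes. After withdrawal 9 were higher and none lower, against 6.81% and 12.0%, and a fit with the letter as a block gave 14 higher and none lower, against 14.5% and 21.5% of all probes in that fit. With compound 9 none of the 22 passed in either direction, nor did any of the 29631 (0% higher and 0% lower), although 8 of the 22 and 368 of all probes had an unadjusted p under 0.05. The median change of the probes was 0.87 with compound 6, 0.43 with compound 2, 0.25 after withdrawal and 0.10 with compound 9, against -0.03, 0, -0.01 and -0.01 over all probes. Since these contrasts served to choose the genes, nothing further is read from the counts.

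**Figure D2:**
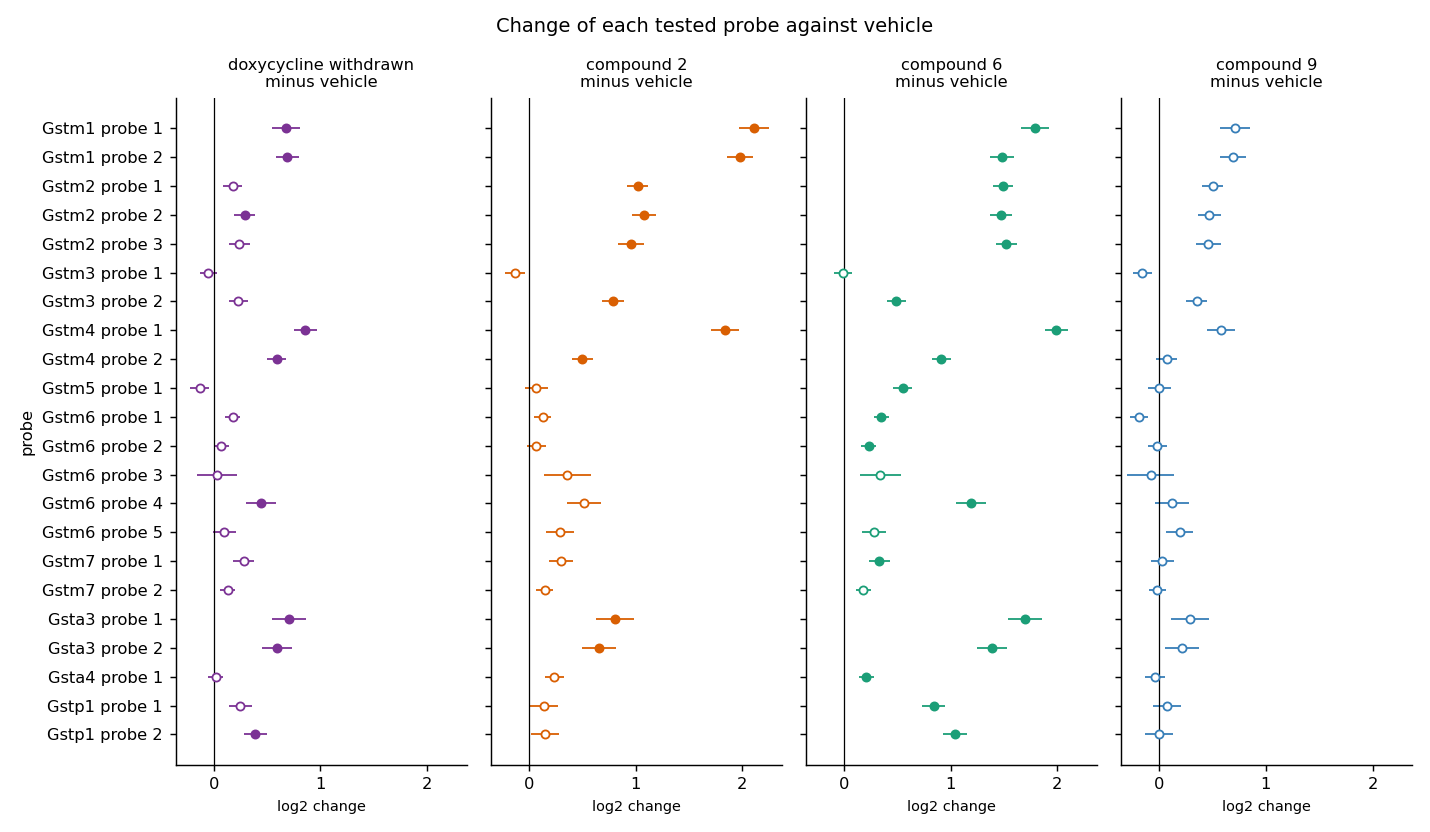
Log2 change (horizontal axis) of each of the 22 tested probes against vehicle arrays with the same letters, one panel per treatment; bars are ± SE, and filled points passed an adjusted p under 0.05. Gstm1 and Gstm4 probe 1 lie furthest right with compounds 2 and 6, and no point is filled with compound 9.

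Changes were also computed within slides. Compound 2 over vehicle was 1.99 on slide 1 and 2.37 on slide 2 for Gstm1, and 1.85 and 1.84 for Gstm4. Compound 6 over vehicle was 1.77, 1.62 and 2.29 for Gstm1 on slides 3, 4 and 5, and 1.72, 1.58 and 1.93 for Gsta3. Withdrawal over vehicle was 0.39 on slide 3 and 0.72 on slide 4 for Gstm1. Vehicle itself differed between the letter sets, and so between scan days, which cannot be told apart: Gstm1 probe 1 averaged 3.32 in D to G and 1.85 in A to C, Gstp1 probe 1 1.82 and 0.95, and Gstm7 probe 1 3.93 and 4.53.

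Gstm3, of the same class, gave different answers with its 2 probes. Gstm3 probe 2 read 4.01, 4.05 and 3.98 with compound 2 and 3.60, 3.72 and 3.40 with compound 9, against 3.20, 3.30 and 3.19 with vehicle A to C, and did not overlap. It was 0.79 ± 0.10 above vehicle with compound 2 and 0.49 ± 0.09 with compound 6, while Gstm3 probe 1 lay near vehicle in every treatment.

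The reference channel moved with the sample at some of these probes. The same reference RNA was on every array, yet the quantile-normalised log2 Cy5 intensity of Gstm3 probe 1 was 14.63 ± 0.03 with compound 6 (SD, n = 4), against 13.08 ± 0.22 with vehicle D to G (n = 4). With compound 2 it was 13.12 ± 0.12, against 11.64 ± 0.15 with vehicle A to C (SD, n = 3 each). The Cy3 intensity of the same probe was 16.86 ± 0.17 with compound 6 against 15.55 ± 0.22 with vehicle D to G, and 15.47 ± 0.04 with compound 2 against 14.19 ± 0.15 with vehicle A to C. Both dyes therefore shifted by about the same amount, so the ratio of Gstm3 probe 1 stayed near vehicle, at -0.01 ± 0.08 with compound 6 and -0.13 ± 0.09 with compound 2.

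Such shifts were rare on the arrays. A reference channel change of at least 2-fold was found for 4 of the 22 probes with compound 6 and for 1 (Gstm3 probe 1, 1.48) with compound 2, against 0.125% and 0.0911% of all tested probes. The 4 were Gstm3 probe 1 (1.55), Gstm3 probe 2 (1.64), Gstm1 probe 2 (1.24) and Gstm4 probe 2 (1.14), whose Cy3 changes with compound 6 were 1.32, 2.01, 2.64 and 1.99. The Cy5 change was small for Gstm2 probe 1 (0.07 ± 0.04), Gsta3 probe 1 (0.05 ± 0.09) and Gstp1 probe 1 (0.11 ± 0.04) with compound 6, and 0.34 ± 0.09 for Gstm1 probe 1. In Cy3 alone 20 of the 22 probes were higher with compound 6 and 14 with compound 2, against 10.4% and 2.38% of all probes. Smaller Cy5 rises were found elsewhere too. With compound 6 they were 0.54 ± 0.08 for Gstm4 probe 1, 0.55 ± 0.12 for Gstm6 probe 2 and 0.41 ± 0.05 for Gsta3 probe 2. With compound 2 they were 0.96 ± 0.14 for Gstm3 probe 2, 0.62 ± 0.08 for Gstm1 probe 2 and 0.56 ± 0.14 for Gstm4 probe 2. What moved the reference channel was not tested. The ratios of the 4 probes, and to a smaller extent of these others, have this shift in them.

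**Figure D3:**
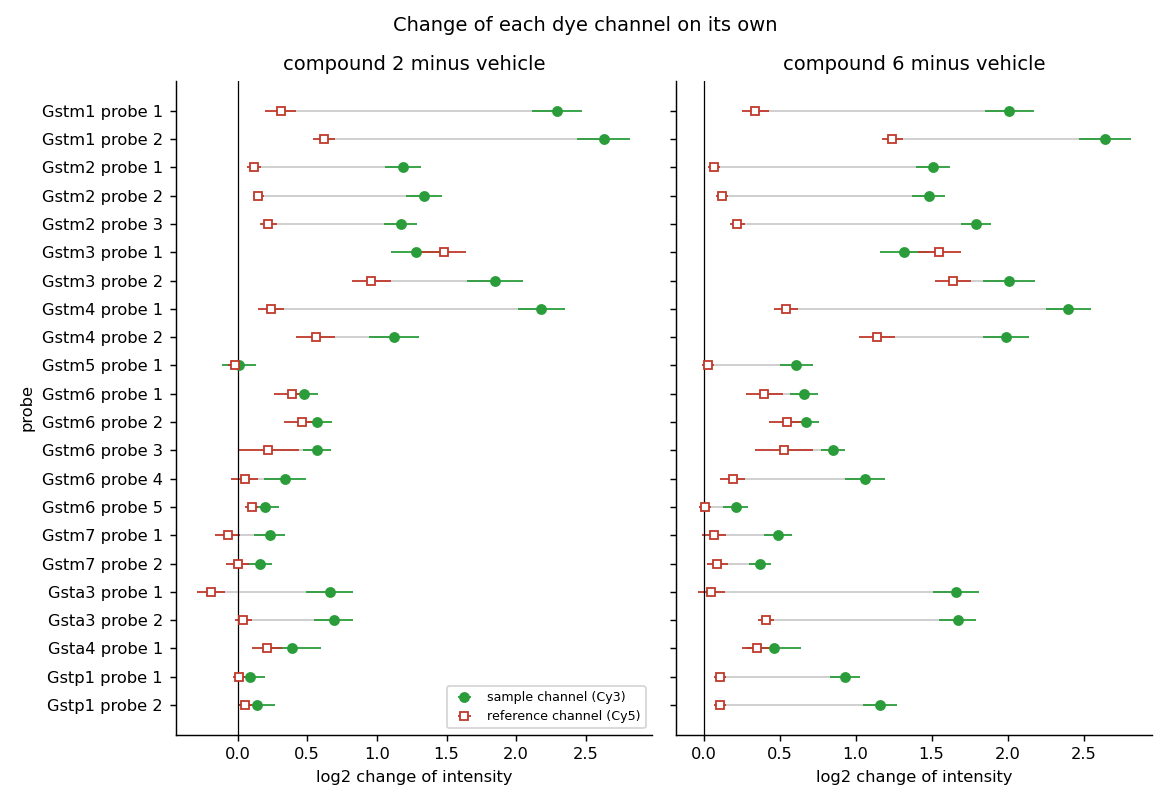
Log2 change of each dye on its own against vehicle with the same letters (± SE), with filled circles for Cy3 (the sample) and open squares for Cy5 (the common reference). With compounds 2 and 6 squares sit within 0.22 of 0 for Gstm2, Gstm5 and Gstp1, and near the circles for Gstm3 probe 1.

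Differences between treatments were also computed. Those that use the compound 2 arrays draw on the values that chose Gstm1 and Gstm4, so they are a description. Compounds 9 and 2 were given at the same dose, time and letters. There 9 of the 22 probes were lower with compound 9 and none higher at an adjusted p under 0.05 in limma, against 2.79% and 1.22% of all probes. For Gstm1 probe 1 the difference of compound 9 minus compound 2 was -1.40 (95% interval -1.70 to -1.10), lower in 3 of 3 letters. It was -1.27 (-1.54 to -0.99) for Gstm4 probe 1 and -0.52 (-0.73 to -0.31) for Gstm2 probe 1. Within slide 1 and slide 2 the Gstm1 difference was -1.30 and -1.60.

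Gsta3 probe 1 differed by -0.52 (-0.90 to -0.14) and Gsta4 by -0.28 (-0.46 to -0.10), and both passed only in the fit with letters as blocks. Gstm6 probe 1 was lower with compound 9, with a difference of -0.32 (-0.49 to -0.15), a call that was lost in 11 of 17 other settings. The probes of Gstm3 parted again. Gstm3 probe 2 passed, at -0.44 (-0.66 to -0.22) and lower in 3 of 3 letters, and probe 1 did not, at -0.03 (-0.22 to 0.17). For probe 1 the Cy3 intensity alone differed by -0.76 ± 0.18 and the Cy5 reference by -0.78 ± 0.16. Gstp1 probe 1, at -0.07 (-0.33 to 0.20), and Gstm5, at -0.07 (-0.30 to 0.16), did not pass. Without compound 2 A or compound 9 C only 5 probes passed.

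Compounds 6 and 2 were given at the same dose and time but on different letters, so their changes against their own vehicle arrays were set against each other. A single probe passed, Gstp1 probe 2, higher by 0.89 with compound 6 (0.54 to 1.25), against 0.388% of all probes higher and 0.243% lower. As given above, that probe is also assigned to a Gstp2 transcript. With the letter as a block 8 probes were higher and 1 lower, against 4.37% and 4.19% of all probes in that fit. The lower one was Gstm1 probe 2, at -0.50 (-0.84 to -0.15), where the Cy3 intensity alone differed by 0.01 ± 0.26 and the Cy5 reference by 0.62 ± 0.11. Gsta3 probe 1 was at 0.89 (0.40 to 1.39) and Gstp1 probe 1 at 0.70 (0.36 to 1.05), both past the threshold only with the block. Gstm1 probe 1 was at -0.32 (-0.72 to 0.08) and Gstm4 probe 1 at 0.15 (-0.22 to 0.51), past it in neither fit. No probe passed without compound 2 A or without compound 2 B, 2 did without compound 2 C, 3 without compound 6 G or vehicle B, and 6 without vehicle F.

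Compound 6 was compared with compound 9 in the same way, as a difference of changes. This comparison and the next were not themselves used to choose the genes. Each is, however, a difference between changes against vehicle that were. Both are therefore not independent of that choice and are a description, without p-values. There 14 probes of 7 genes were higher with compound 6 and none lower at an adjusted p under 0.05 in limma, against 3.36% and 2.31% of all probes. Gsta3 probe 1 was higher by 1.41 (0.92 to 1.91), Gstm4 probe 1 by 1.41 (1.05 to 1.78) and Gstm1 probe 1 by 1.08 (0.68 to 1.48). Gstm3 probe 1 was at 0.15 (-0.11 to 0.41) and Gsta4 at 0.25 (0.01 to 0.49), neither past the threshold. For Gstm3 probe 1 the Cy3 intensity alone differed by 0.80 ± 0.24 and the Cy5 reference by 0.86 ± 0.22.

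Compound 6 was also set against withdrawal on the same letters, that is, the inhibitor with the β-catenin mutant still induced against the end of induction. Of the 22 probes 13 were higher with compound 6 and none lower at the same threshold, against 6.43% and 7.07% of all probes. Gstm2 probe 1 was higher by 1.31 (1.13 to 1.49) and Gstm4 probe 1 by 1.13 (0.89 to 1.37). Gstm1 probe 1 was higher by 1.11 (0.85 to 1.37) and Gsta3 probe 1 by 0.99 (0.66 to 1.32). Each of these was higher in 4 of 4 letters. Gstm5 was higher by 0.68 (0.48 to 0.88) and Gstp1 probe 1 by 0.59 (0.36 to 0.81). Gstm3 probe 2, at 0.25 (0.07 to 0.44), and Gsta4, at 0.19 (0.03 to 0.35), passed only with a letter block. For Gstm3 probe 2 the Cy3 intensity alone differed by 1.06 ± 0.17 and the Cy5 reference by 1.01 ± 0.12. Within slides the Gstm1 difference was 1.38 on slide 3 and 0.90 on slide 4.

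**Figure D4:**
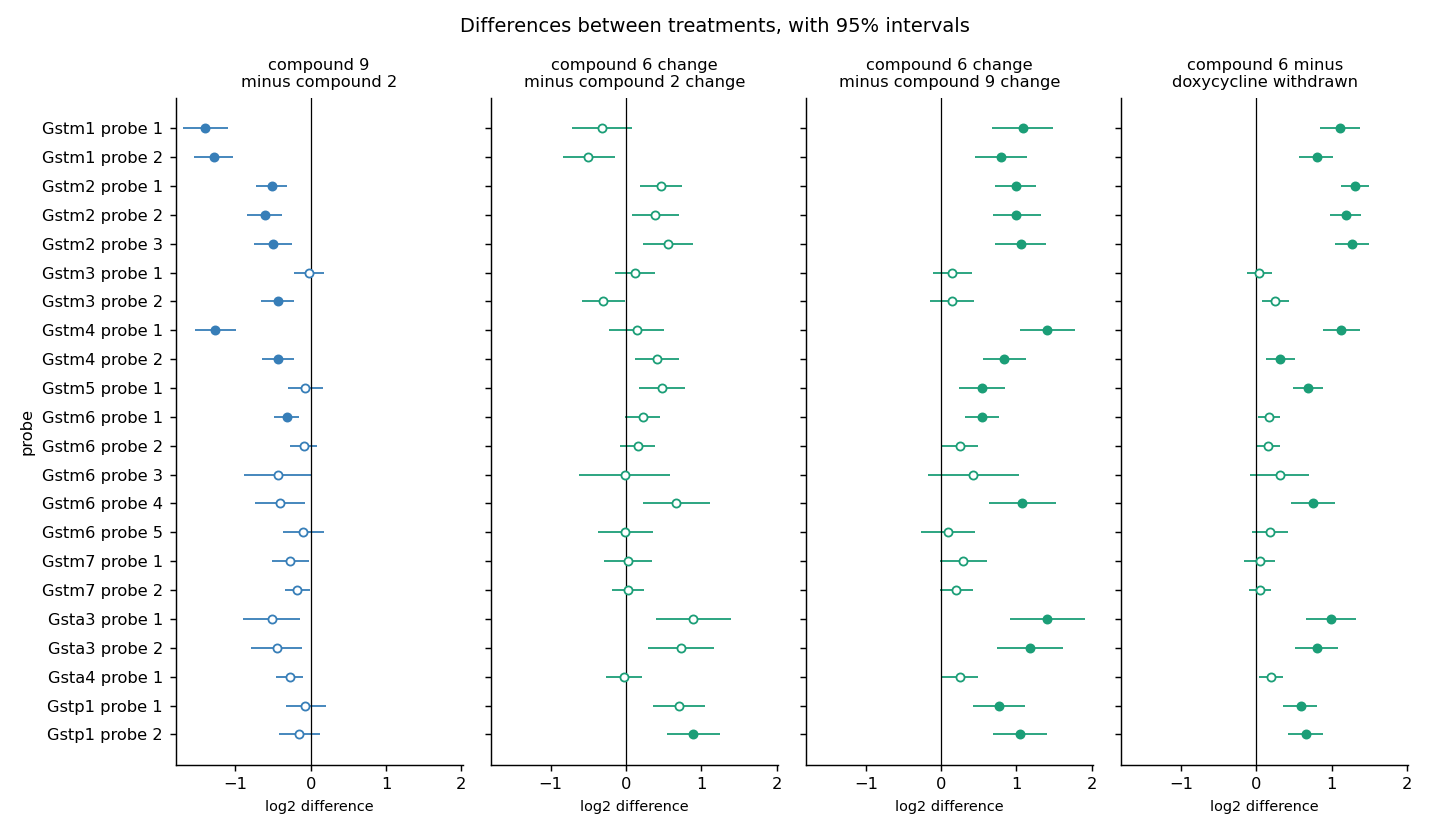
Log2 difference between treatments (horizontal axis) for each tested probe, with 95% intervals; filled points passed an adjusted p under 0.05. Compound 9 lies below compound 2 for Gstm1, Gstm2 and Gstm4, and compound 6 passed above withdrawal for 13 of 22 probes.

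Other genes of the pathway were counted over lists, by the brightest probe of a gene. Over all 21372 genes so represented, 11.2% were higher and 13.2% lower with compound 6, 3.09% and 1.79% with compound 2, and 7.02% and 13.1% after withdrawal, with median changes of -0.03, 0 and -0.01. Of 13 genes of glutathione synthesis and recycling, 9 rose with compound 6 (median change 0.45), 5 with compound 2 (median 0.30), and 4 rose and 1 fell after withdrawal (median 0.14). Gclc, the catalytic subunit of the rate-limiting enzyme of glutathione synthesis, rose by 2.94 ± 0.17 with compound 6, 1.03 ± 0.19 with compound 2 and 1.24 ± 0.17 after withdrawal, and was at 0.22 ± 0.19 with compound 9. Gclm, its modifier subunit, rose by 1.16 ± 0.12, 0.52 ± 0.14 and 0.45 ± 0.12 in that order and was at 0.04 ± 0.14 with compound 9. Gsr, which regenerates reduced glutathione, rose by 1.31 ± 0.10 with compound 6, and Slc1a1, a carrier of glutamate and cysteine, rose by 0.82 ± 0.13 with compound 2. Ggct, which breaks down γ-glutamyl amino acids, fell by 1.27 after withdrawal. No gene of the list passed with compound 9.

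**Figure D5:**
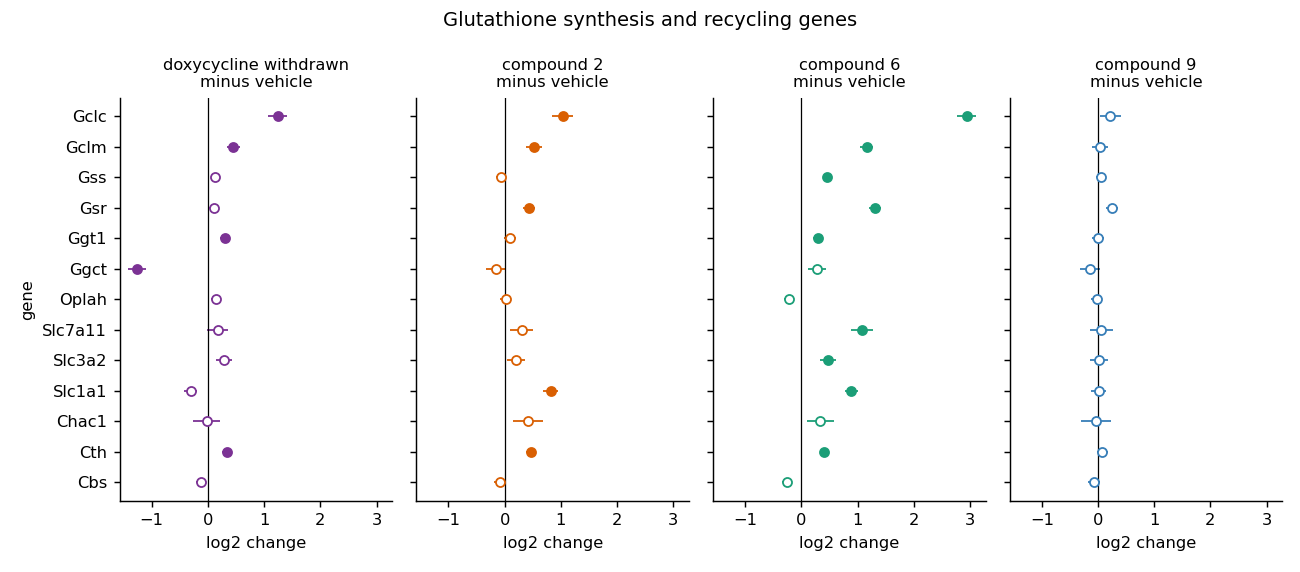
Log2 change (horizontal axis, ± SE) of 13 genes of glutathione synthesis and recycling against vehicle with the same letters; filled points passed an adjusted p under 0.05. Gclc is the furthest right in the compound 6 panel, at 2.94, and Ggct the furthest left after withdrawal, at -1.27.

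Of 15 other glutathione transferases measured, 5 rose with compound 6, 2 with compound 2 and 3 after withdrawal, and none fell (median changes 0.05, 0.12 and 0.06). Mgst3, a microsomal enzyme, rose by 0.89 ± 0.07 with compound 6, 0.34 ± 0.09 with compound 2 and 0.40 ± 0.07 after withdrawal. With compound 6 Gstp2, the pi class neighbour of Gstp1, rose by 0.88 ± 0.16 and the microsomal Mgst1 by 0.56 ± 0.09. Gsta2, of the alpha class, rose by 0.41 ± 0.11 with compound 2. Gstk1 and Gstt1, of the kappa and theta classes, rose by 0.27 ± 0.09 and 0.20 ± 0.06 after withdrawal.

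Of 12 genes of the NRF2 pathway, 6 rose with compound 6, 3 with compound 2 and 3 after withdrawal (median changes 0.31, 0.26 and 0.21). Nqo1, a quinone reductase and classical NRF2 target, rose by 1.03 ± 0.15 with compound 6, 0.69 ± 0.17 with compound 2 and 0.53 ± 0.15 after withdrawal. Nfe2l2, which encodes NRF2, rose by 0.73 ± 0.13 with compound 2 and 0.52 ± 0.11 with compound 6, and its change was 0.30 ± 0.11 after withdrawal. Mafg, a small Maf partner of NRF2, rose by 0.82 ± 0.14 with compound 6. Srxn1, which repairs overoxidised peroxiredoxins, rose by 0.81 ± 0.09 with compound 6 and 0.44 ± 0.09 after withdrawal. Keap1, the inhibitor of NRF2, rose by 0.35 ± 0.09 with compound 2, and Mafk, another small Maf, by 0.36 ± 0.09 after withdrawal.

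Of 6 glutathione peroxidases measured, 3 rose with compound 6, none with compound 2, and 1 fell after withdrawal (median changes 0.24, -0.01 and -0.01). With compound 6 the secreted Gpx3 rose by 0.95 ± 0.23, the peroxiredoxin Prdx6 by 0.60 ± 0.11 and Gpx4, which reduces lipid peroxides, by 0.27 ± 0.07. Gpx2, the gastrointestinal enzyme, fell by 0.74 after withdrawal. Of 10 genes that export or process conjugates, 3 rose and 1 fell with compound 6, 1 rose with compound 2, and 2 rose and 1 fell after withdrawal (median changes 0.14, 0.05 and 0.25). Abcc3, a pump for organic anion conjugates, rose by 0.82 ± 0.18 with compound 6 and 0.81 ± 0.21 with compound 2. The related pumps Abcc5 and Abcc4 rose by 0.71 ± 0.21 and 0.38 ± 0.13 with compound 6. After withdrawal the pump Abcg2 rose by 0.47 ± 0.09 and the aminoacylase Acy1 by 0.34 ± 0.11, and Abcc1, which exports glutathione conjugates, fell by 0.50.

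Of 7 receptors for foreign chemicals and their targets, 1 rose with compound 6, 1 with compound 2 and 2 after withdrawal (median changes 0.08, 0.14 and 0.16). Ahr, the aryl hydrocarbon receptor, rose by 0.26 ± 0.07, 0.30 ± 0.08 and 0.28 ± 0.07 in that order, and its target Tiparp by 0.44 ± 0.11 after withdrawal. Of 9 other conjugating enzymes, 5 rose and 1 fell with compound 6, 2 rose with compound 2, and 4 rose and 1 fell after withdrawal (median changes 0.45, 0.42 and 0.21). Ugt2b35, a glucuronosyltransferase, rose by 1.65 ± 0.18, 0.99 ± 0.21 and 0.84 ± 0.18. Ephx1, the microsomal epoxide hydrolase, rose by 0.86 ± 0.10 with compound 6 and 0.55 ± 0.12 with compound 2, and the glucuronosyltransferase Ugt1a6a by 0.83 ± 0.16 with compound 6. After withdrawal the sulfotransferase Sult1d1 rose by 0.55 ± 0.18. No gene of any of these lists passed with compound 9.

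Likeness to Gstm1 was measured over all 21 arrays after subtracting the vehicle mean of each letter set, among 21310 genes. The 5 highest Pearson correlations were 0.985 for 4930415C11Rik, 0.973 for Krt31, a hair keratin, 0.966 for Gstm4, 0.948 for a non-coding region of chromosome 2 named by its position, and 0.940 for 2810408I11Rik. These values share groups, slides and the reference channel and are a description. Among the other members Gstm2 was at 0.913, Gsta3 at 0.803, Gsta4 at 0.742, Gstm7 at 0.614, Gstp1 at 0.604, Gstm6 at 0.569, Gstm5 at 0.547 and Gstm3 at -0.144. Their ranks among all these genes were 14, 213, 472, 1310, 1400, 1700, 1921 and 13389 in that order, so many genes outside the family were closer to Gstm1 than most members. The ratio of Gstm3 probe 1 thus did not follow Gstm1, although its Cy3 intensity was higher with compounds 2 and 6 than with vehicle.

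Promoters were read from RefSeq (GRCm38.p6, 250 bases before to 50 after the start), which held 14 promoters of 9 of the genes. The antioxidant response element core TGACNNNGC, searched on both strands, was in 3 of the 14 and in 12.4% of 32851 promoters. The 3 matches are shown with 30 bases each, with the core in capitals, because NRF2 binds this element. They lie in chr1:21240454-21240483, chr3:107895802-107895831 (both plus strand) and chr3:107931724-107931753 (minus strand).
Gsta3: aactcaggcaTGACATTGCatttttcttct
Gstm5: caccgcccacTGACCACGCggagggcgggt
Gstm7: tctgaagaccTGACAAAGCgaagccaatcc

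The xenobiotic response element core GCGTG was in 4 of the 14 promoters and in 32.4% of all. The TCF/LEF core CTTTGAT, the motif of the factors that β-catenin partners, was in none of the 14 and in 3.73% of all. A match is a string of letters in this window and says nothing about binding.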

How the data were processed

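Total RNA of 21 organoid samples was hybridised against a common reference, and slides were quantified with Agilent Feature Extraction 10.7.3.1, per the file headers. The deposited scanner files give the mean and background intensity of each spot in both channels, per the file headers. They also hold a log10 ratio of reference over sample made by that software, per the file headers, and 0 or 1 flags for spots. The values of the deposited series matrix are on a log2 scale, sample over reference, since they correlated at -0.9987 to -0.9953 with the scanner files' log ratio, which runs the other way. No source used here names the software behind that matrix.

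Intensities were background-corrected (normexp, offset 50) and loess-normalised within each array with limma 3.58.1 under R 4.3.3 (tables were read with data.table, version 1.17.8), and turned to log2 sample over reference. Control spots (3671 of 62976) and 157 non-uniform spots were left out, spots of a probe were averaged, and 29631 of 55681 probes were tested, those whose Cy3 signal was well above background on 3 or more arrays. No spot of these genes was saturated. One model held group and letter set for all 21 arrays, with two-sided tests and Benjamini-Hochberg adjustment over all tested probes. Dye channels were also analysed singly after quantile normalisation. The script was tested on simulated data. Python 3.11.15 with matplotlib 3.10.9 drew the figures. All columns used belonged to samples of the series (0 did not).

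Groups came from the labels. The letters pair samples: all 21 same-letter pairs of arrays deviated together from their group means (r 0.196 to 0.729, median 0.50), against a median of -0.174 for other letters, so the letter was also fitted as a block. The genes, the gene lists and the comparisons were chosen with earlier results of these data known. Every probe of the 10 genes is reported. From each list the text names, for each comparison with vehicle, the up to 3 passing genes with the largest change, plus Gclc, Gclm, Nqo1 and Nfe2l2, with the 5 genes most correlated with Gstm1. A gene that this rule names is not reported here. Alternatives were Agilent's log ratio, the series matrix, no background subtraction, Cy3 alone, other probe filters, the brightest probe of each gene, the letter or slide as a block, no letter set term, only the arrays compared, and each array left out.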

Additional observations from a re-analysis of the deposited data

Results flagged for a closer look

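Of 66 pairs of probe and group with 4 arrays, 4 held an array far from the other 3 by Dixon's ratio of gap to range at the 95% level. Chance gives about 1 in 20. The F array after withdrawal read -0.01 for Gstm6 probe 5 (the others 0.37 to 0.40) and 2.42 for Gstp1 probe 2 (the others 2.70 to 2.76). The compound 6 F array read 3.62 for Gsta4 probe 1 (the others 3.34 to 3.38). Vehicle D read 0.12 for Gstm6 probe 5 (the others 0.21). Gstm6 probe 5 was not well above background on any withdrawal or vehicle array of letters D to G.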

How the results depend on the processing

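Counts of passing probes stayed within 1.5 times of the values above, and on the same side, under Agilent's log ratio, the series matrix, no background subtraction, both probe filters and the slide as a random block (correlation 0.00795). Cy3 alone gave 15 probes after withdrawal and 4 for compound 6 minus compound 2. The brightest probe of each gene, which leaves 10 probes to test, gave 3 after withdrawal, 4 with compound 2, 9 with compound 6, 4 for compound 9 minus compound 2, 0 for compound 6 minus compound 2, 7 for compound 6 minus compound 9 and 6 for compound 6 minus withdrawal. The letter as replicate block gave 14 after withdrawal and 9 for compound 6 minus compound 2, and elsewhere 12 with compound 2, 20 with compound 6, 12 for compound 9 minus compound 2, 14 for compound 6 minus compound 9 and 15 for compound 6 minus withdrawal, none moved by over 1.5 times. Without the letter set term 3 passed for compound 9 minus compound 2 and 15 for compound 6 minus compound 2. With only the arrays compared these were 5 and 0. Without every letter F array, chosen after seeing the data, 14 passed after withdrawal and 6 for compound 6 minus compound 2. Leaving out each array in turn gave 6 to 11 after withdrawal, 8 to 10 with compound 2, 15 to 18 with compound 6, 0 with compound 9, 5 to 8 for compound 9 minus compound 2, 0 to 6 for compound 6 minus compound 2, 13 to 14 for compound 6 minus compound 9 and 12 to 14 for compound 6 minus withdrawal. Some single genes reversed. Gstm3 was at 0.43 after withdrawal and 0.65 with compound 6 under Agilent's log ratio, and at 0.58, 1.28 and 1.32 after withdrawal and with compounds 2 and 6 in Cy3 alone. Without the letter set term compound 6 minus compound 2 was 1.14 for Gstm1 and -0.57 for Gstm7, and compound 6 minus compound 9 was -0.01 for Gstm5. Without that term the vehicle arrays drop out of these differences between compounds, which then hold the difference between the letter sets. Vehicle D to G minus vehicle A to C was 1.47 for Gstm1 probe 1, -0.60 for Gstm7 probe 1 and -0.56 for Gstm5 probe 1. For Gstm3 the cause was not tested, beyond the reference channel values given above. Signal near background limits Gstm6 probes 4 and 5 and Gstm7 probe 3.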
